A study of Mus musculus with 4 samples.

Results

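The 10 genes described here belong to the integrated stress response. They are Atf4, Ddit3, Trib3, Ppp1r15a, Chac1, Sesn2, Ddit4, Gdf15, Asns and Psat1, and they were chosen by symbol as well known parts or targets of the pathway. Each was found as a row among the 16375 genes of the expression table. In this pathway, stress-sensing kinases phosphorylate the translation factor eIF2α, which lowers protein synthesis in general while favouring translation of the mRNA for the transcription factor ATF4. ATF4 and its partner CHOP, the product of Ddit3, then raise the transcription of genes for amino acid supply, redox balance, feedback inhibition and, where stress lasts, cell death. Macrophages use the pathway when nutrients, protein folding or mitochondria are disturbed, and since ATF4 is controlled mainly through translation, its mRNA is only a partial measure of it.

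RNA sequencing was done on mouse macrophages grown from bone marrow cells with M-CSF, from WT mice and from LNCKO mice, in which the long noncoding RNA lncLy6c was deleted with CRISPR-Cas9 on a C57BL/6J background. Cells of each genotype were kept without butyrate (control) or given 500 µM butyrate, a short fatty acid made by gut bacteria, for 24 h. The series asks how butyrate alters macrophage expression and whether that depends on lncLy6c. The 4 groups are called WT control, LNCKO control, WT butyrate and LNCKO butyrate, and each was 1 library, so no difference below has a replicate check or a test. The libraries were placed in groups by their labels, and the deposited names of the LNCKO libraries carry the letters NC and R3, which no label explains, so the genotype of every LNCKO value rests on the labels alone. The study's methods name young C57BL/6 mice of both sexes but do not say which gave these cultures, and the deleted transcript was not analysed here.

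Values are FPKM, fragments per kilobase of gene and per 1000000 fragments of the library. The kilobases were those of the whole gene from first to last base, introns included, so FPKM compares libraries for a gene but not genes with each other. The number of fragments behind each value was recovered from the table, with totals of 53363944 to 65521713 fragments per library, and the 95% intervals given with ratios come from these fragments. They cover counting error only and compare 2 libraries, not 2 conditions. Where 4 values of a gene follow each other, they are those of WT without and with butyrate and then those of LNCKO without and with it. Ddx3y, a Y-linked gene, stood at 0.0446 and 0.0320 FPKM in WT control and WT butyrate and at 4.44 and 4.58 in LNCKO control and LNCKO butyrate. The sex of the donors and the genotype therefore cannot be told apart in any LNCKO against WT value. The 8 macrophage markers were all present, with a summed level of 1411 to 3453 FPKM. Most of this sum and of its spread was Lyz2, at 1972, 2871, 1609 and 870 FPKM. Markers of neutrophils and granulocyte precursors (2240 to 3086 FPKM over 10 genes), B cells (164 to 216 FPKM over 7 genes) and stromal cells (2.83 to 10.9 FPKM over 7 genes) were present too.

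Among the 10 genes, only Gdf15 and Trib3 differed by more than 1.5-fold between the WT libraries. Gdf15, a stress-induced secreted cytokine, was 1.69-fold lower with butyrate in WT and 1.56-fold higher with butyrate in LNCKO, which left it 2.99-fold higher in LNCKO than in WT under butyrate. Trib3, a pseudokinase that restrains ATF4 and CHOP, was lower with butyrate in both genotypes and higher in LNCKO than in WT at both settings. In bulk RNA such as this, fewer cells of a type and less RNA per cell cannot be told apart. Atf4 itself lay within 78.9 to 87.4 FPKM in the 4 libraries. The amino acid enzymes Asns and Psat1 were lower with butyrate in LNCKO, by 1.496-fold and 1.09-fold, and stood at ratios of 1.11 and 1.23 with butyrate in WT.

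For counts over the list, a gene had to pass a limit of 1 FPKM on average over the 4 libraries, which 6809 genes and 7 of the 10 members did, all but Trib3, Chac1 and Asns. It was counted where its difference in log2(FPKM + 0.1), called the log2 scale below, was past 1.5-fold. With butyrate in WT, 0 members were higher and 1 lower (Gdf15), against 1.35% of all 6809 genes higher and 0.999% lower. The member median was -0.18 and that of all genes -0.05. With butyrate in LNCKO, 1 member was higher (Gdf15) and 0 lower, against 0.529% and 0.22% of all genes, and the medians were -0.01 for the members and -0.02 for all genes.

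In LNCKO against WT without butyrate, 0 members were higher and 0 lower, against 0.617% and 0.47% of all genes, with 6 of 7 members above 0 and a median of 0.15 against 0.02. With butyrate, 1 was higher (Gdf15) and 0 lower, against 1.56% and 1.29%, with 6 of 7 above 0 and a median of 0.23 against 0.06. The exceptions were Ddit4 without butyrate, at -0.01, and Psat1 with it, at -0.20. The median of all genes was above 0 at both settings too, and the share of all genes above 0 was not counted. For the butyrate change in WT minus that in LNCKO, 0 members were past 1.5-fold above 0 and 1 below it (Gdf15), against 1.5% and 1.41% of all genes, and the median was -0.14 against -0.04. Because the comparisons share libraries, their values are not independent of each other. Each count above 0 was Gdf15 alone. In the other lists below, genes above the limit were counted in the same way. The share of all genes past 1.5-fold in 1 direction was 0.22% to 1.56%, depending on the comparison. A count of 0 in a short list therefore says little.

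The limit of 1 FPKM is harder to reach for long genes, since FPKM was set by gene length with introns. With a limit of 50 fragments on average instead, chosen after the values were seen, all 10 members and 11726 genes were counted. For butyrate in WT, 0 members were then higher and 2 lower (Gdf15 and Trib3), against 2.02% and 1.37% of those genes. For butyrate in LNCKO, 1 was higher (Gdf15) and 0 lower, against 0.844% and 0.461%. In LNCKO against WT, 1 was higher without butyrate (Trib3) and 2 with it (Gdf15 and Trib3), against 0.964% and 1.93%, and 0 were lower at either setting, against 1.01% and 1.94%. For the WT change minus the LNCKO change, 1 was above 0 past 1.5-fold (Asns) and 1 below it (Gdf15), against 2.74% and 2.25%.

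**Figure D1:**
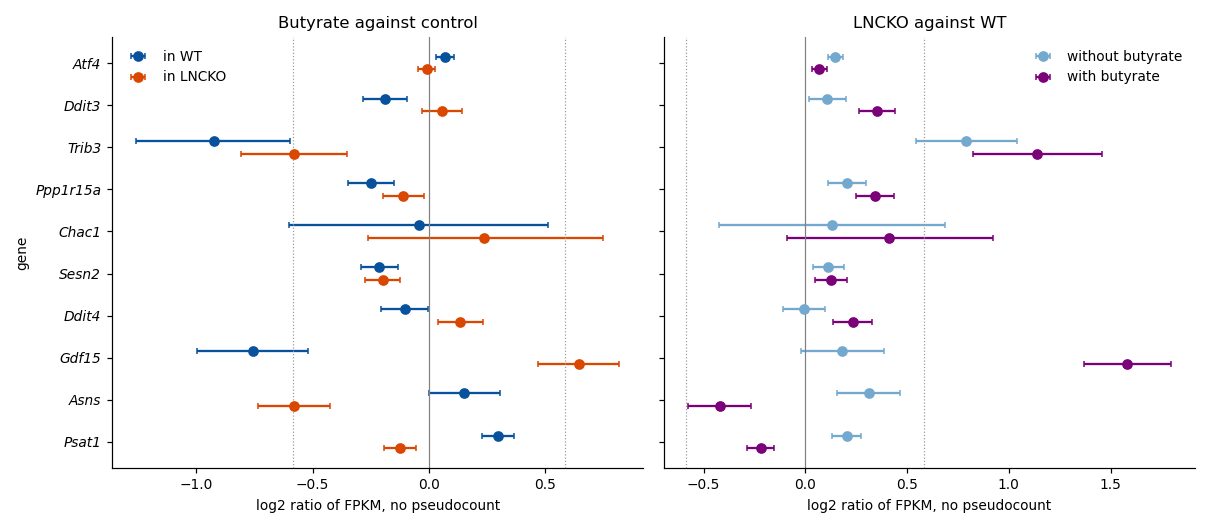
Log2 ratio of FPKM, without a pseudocount, for each of the 10 genes, for butyrate against control in each genotype (left) and LNCKO against WT at each setting (right), with 95% intervals for counting error and dotted lines at 1.5-fold. Gdf15 stands at 1.58 and Trib3 at 1.14 for LNCKO against WT under butyrate, while Chac1 has wide intervals, which include 0 on this scale.

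Regulatory DNA near the start sites was read to see which of these genes carry, in their proximal promoter, a motif that ATF4 and related factors are known to bind. RefSeq promoter windows (GRCm38.p6), from 250 bases before to 50 bases after each annotated start, were found for all 10 genes as 12 windows. The C/EBP-ATF response element was searched on both strands as TGATGNAA, and it was found in 3.97% of all 32851 windows and in the windows of 3 genes. In the sequences below, capitals mark the matched letters, written 5′ to 3′ on the strand of the gene. They are shown because these are the members whose window holds the element.
Chac1: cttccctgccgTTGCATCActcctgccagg
Trib3: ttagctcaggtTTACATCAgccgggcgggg
Asns: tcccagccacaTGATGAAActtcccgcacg

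The Chac1 match lies 193 bases before the RefSeq start (window chr2:119351038-119351067, plus strand) and the Asns match 23 bases before its own (window chr6:7693214-7693243, minus strand). For both genes the RefSeq start lies downstream of the start used for the gene coordinates given here. The Asns match therefore lies inside those coordinates, and the Chac1 match outside them. For Trib3 the match lies 15 bases after the RefSeq start, which lies upstream of the start used for the gene coordinates given here (window chr2:152344028-152344057, minus strand). The cAMP response element, TGACGTCA, was found in 1.79% of all windows and in that of Ppp1r15a alone among the members. It sits 12 bases before the start (window chr7:45526262-45526291, minus strand) and is shown for its closeness to the start of a feedback gene.
Ppp1r15a: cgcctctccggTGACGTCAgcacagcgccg

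The ER stress response element, CCAAT and CCACG with 9 bases of any kind between them, was found in 0.119% of all windows and in 0 of the members' windows. Both windows of Gdf15 held none of these 3 motifs, which says only that these letters are not in those windows.

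To compare genes, levels were recomputed per kilobase of exon. This takes every fragment as exonic, which could not be checked, since how fragments were counted is not given. If intronic fragments were counted, genes with long introns stand too high here, such as Psat1, which is 42660 bases long with 4254 of exon. Atf4 was the most abundant member, with a median of 84.8 fragments per kilobase of exon per 1000000 over the 4 libraries (78.9 to 87.4). Ddit3 (median 20.6), Ddit4 (16.1), Psat1 (13.7), Sesn2 (13.2) and Ppp1r15a (11.3) followed, and the range over the libraries of each of these overlapped that of the next. Asns (median 4.39), Gdf15 (3.93) and Trib3 (1.95) formed a lower step with overlapping ranges, and Chac1 was lowest at 0.588 to 0.783. The ranges did not overlap between Atf4 and Ddit3, between Ppp1r15a and Asns, or between Trib3 and Chac1. The order between these steps was thus the same in every library. Within the steps, Ddit3 lay above Ddit4, Sesn2 above Ppp1r15a and Gdf15 above Trib3 in every library, though their ranges overlapped. Ddit4 and Psat1, Psat1 and Sesn2, and Asns and Gdf15 changed places between libraries.

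**Figure D2:**
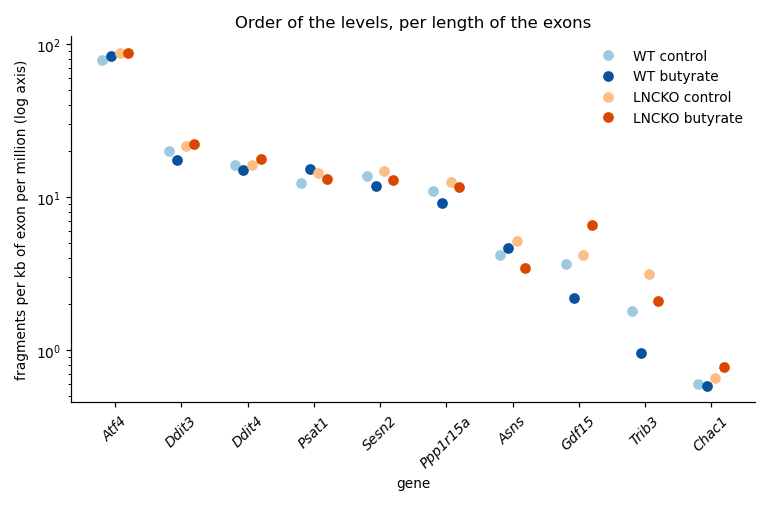
Level of each of the 10 genes in fragments per kilobase of exon per 1000000 (log axis) in the 4 libraries, 1 point per library. Atf4 stands alone at 78.9 to 87.4, Ddit3 to Ppp1r15a form a middle group, and Chac1 is lowest at 0.588 to 0.783.

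Atf4 (ENSMUSG00000042406, chr15:80255184-80257541, plus strand, GRCm38) encodes the transcription factor at the centre of the response. It was measured at 78.9 FPKM without and 82.8 with butyrate in WT, and 87.4 without and 86.8 with it in LNCKO, from 10486 to 13414 fragments. The lowest library was WT control, and both LNCKO libraries lay above both WT libraries. With butyrate the ratio was 1.05 in WT (interval 1.02 to 1.08) and 0.994 in LNCKO (0.969 to 1.02), and LNCKO was 1.11 times WT without butyrate (1.08 to 1.14) and 1.05 times with it (1.02 to 1.08). With libraries scaled by their median ratio, the last ratio was 1.01 (0.984 to 1.03), so that it no longer cleared 1, and that for butyrate in WT was 1.09 (1.06 to 1.12). The 5 genes nearest to Atf4 in their profile over the 4 libraries, by Euclidean distance of centred log2 values, were Use1 (0.00554), Plpp5 (0.0142), Snx6 (0.0148), Zfp426 (0.0167) and Mdm4 (0.0184).

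The kinases that start the response differed little where they passed the limit of 1 FPKM. Eif2ak2, encoding the kinase PKR that senses double-stranded RNA, lay between 9.55 and 10.9 FPKM, and Eif2ak1, encoding the heme-sensing kinase HRI, between 2.60 and 2.74. Eif2ak3, encoding PERK of the endoplasmic reticulum, averaged less, at 1.02 FPKM without and 0.809 with butyrate in WT, and 1.01 without and 0.928 with it in LNCKO. Eif2ak4, encoding the amino acid sensor GCN2, was at 0.346 to 0.369 FPKM. None of the 6 genes for eIF2 and its exchange factor eIF2B that passed the limit, of 7 listed, was past 1.5-fold in any comparison. Likewise 0 of 7 genes for phosphatase subunits and kinase regulators were, and Ppp1r15b, the constitutive partner of the eIF2α phosphatase, lay between 33.4 and 35.1 FPKM. The eIF2 list left out the gamma subunit. Its Y-linked gene Eif2s3y was at 0.0823 and 0.0212 FPKM in WT control and WT butyrate. It was at 4.74 and 5.93 in LNCKO control and LNCKO butyrate, and as for Ddx3y, donor sex and genotype cannot be told apart there.

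Ddit3 (ENSMUSG00000025408, chr10:127290774-127296288, plus strand) encodes CHOP. Its level was 6.17 FPKM without and 5.42 with butyrate in WT, and 6.65 without and 6.92 with it in LNCKO. WT butyrate was the lowest library and LNCKO butyrate the highest. The ratio with butyrate was 0.878 in WT (0.823 to 0.937) and 1.04 in LNCKO (0.981 to 1.10), and under butyrate LNCKO was 1.28 times WT (1.20 to 1.36). Exons of Ddit3 overlap those of a second gene model of the same name and those of Mars1 on the opposite strand, and since strand use in counting is not given in the sources used here, fragments of both genes may be mixed. Mars1 was at 3.93, 3.91, 4.49 and 4.06 FPKM, and its part in the Ddit3 values was not tested.

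Trib3 (ENSMUSG00000032715, chr2:152337422-152344032, minus strand) is a known CHOP and ATF4 target and a feedback inhibitor of them. It was at 0.582 FPKM without and 0.307 with butyrate in WT, and 1.01 without and 0.674 with it in LNCKO, from 217, 120, 355 and 292 fragments. WT butyrate was lowest and LNCKO control highest, and both LNCKO libraries lay above both WT libraries. Trib3 was 1.90-fold lower with butyrate in WT (1.51 to 2.39) and 1.49-fold lower in LNCKO (1.28 to 1.75). LNCKO was 1.73 times WT without butyrate (1.46 to 2.06) and 2.20 times with it (1.77 to 2.74). Its mean of 0.642 FPKM lies under the limit.

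Ppp1r15a (ENSMUSG00000040435, chr7:45522916-45526268, minus strand) encodes GADD34, the stress-induced subunit that brings the phosphatase to eIF2α and so ends the response. Its level was 9.55 FPKM without and 8.04 with butyrate in WT, and 11.01 without and 10.2 with it in LNCKO. Like Trib3, it was lowest in WT butyrate and highest in LNCKO control, with both LNCKO libraries above both WT libraries. The difference was smaller, 1.19-fold lower with butyrate in WT (1.11 to 1.27) and 1.08-fold lower in LNCKO (interval from 1.01 to 1.15 fold). Its exons overlap those of Tulp2 on the opposite strand, which was at 0.0162 FPKM or less in each library.

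Chac1 (ENSMUSG00000027313, chr2:119351229-119354381, plus strand) encodes an enzyme that degrades glutathione and is known as a sensitive ATF4 target. It was at 0.315 FPKM without and 0.305 with butyrate in WT, and 0.345 without and 0.407 with it in LNCKO, from only 56, 57, 58 and 84 fragments. No difference was detectable at this depth, since each of the 4 intervals of its ratios included 1, for example 0.659 to 1.43 for butyrate in WT and 0.940 to 1.90 for LNCKO against WT under butyrate.

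**Figure D3:**
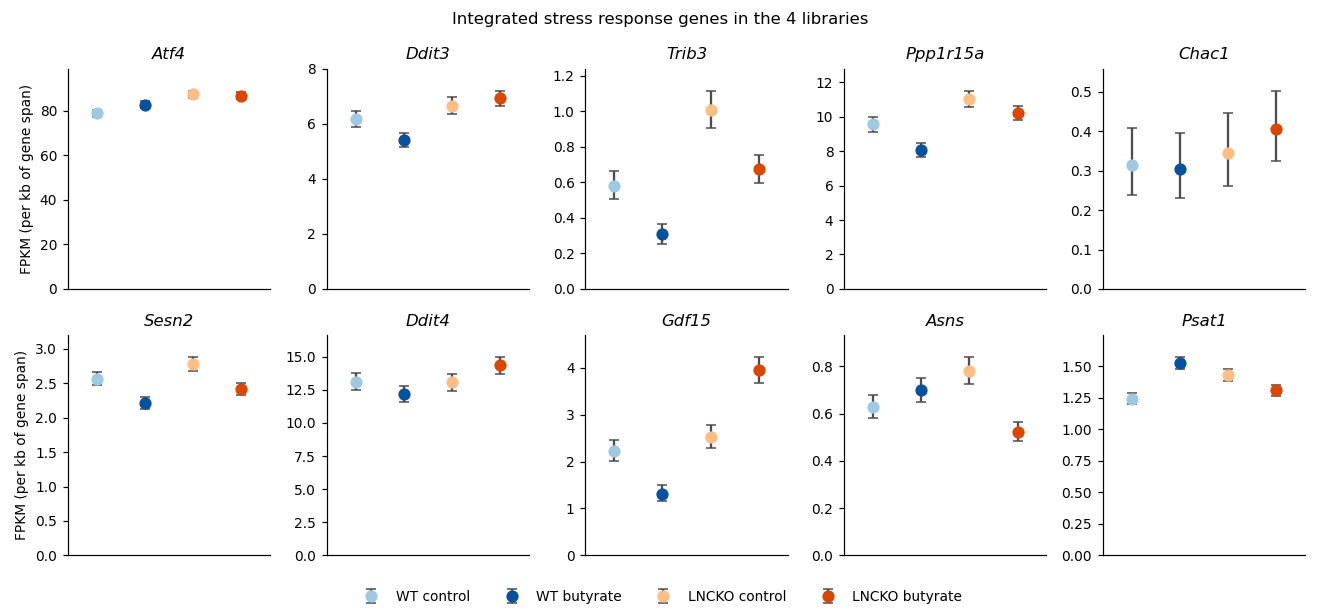
FPKM of each of the 10 genes (vertical axes, each from 0) in the 4 libraries, 1 point per library, with 95% intervals for counting error. Gdf15 runs from 1.32 in WT butyrate to 3.95 in LNCKO butyrate, Trib3 from 0.307 to 1.01, and Atf4 stays between 78.9 and 87.4.

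Of 13 transcription factors of the bZIP family that pair with ATF4 or CHOP or act beside them, 10 passed the limit, and only Atf5, itself a factor translated under stress, was past 1.5-fold, at 5.07 FPKM without and 3.35 with butyrate in WT, and 5.09 without and 4.52 with it in LNCKO. On the log2 scale its difference with butyrate was -0.585 in WT, barely past the limit of 1.5-fold, and -0.17 in LNCKO. Other scaling was not tried for it. Atf3, a stress-induced repressor, was at 3.22 to 3.83 FPKM, Cebpb, a macrophage factor, at 130 to 149 and Cebpg, a dimer partner of ATF4, at 6.89 to 7.54. Cebpd was highest in WT control, at 12.4 FPKM, against 10.4 with butyrate in WT and 9.74 and 10.6 in the LNCKO libraries without and with it.

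Sesn2 and Ddit4 encode inhibitors of mTORC1, the kinase complex that promotes growth when amino acids are plentiful. Sesn2 (ENSMUSG00000028893, chr4:132492032-132510501, minus strand), a leucine sensor, was at 2.57 FPKM without and 2.21 with butyrate in WT, and 2.77 without and 2.42 with it in LNCKO. Both butyrate libraries were below both control libraries, and Sesn2 was 1.16-fold lower in WT (1.10 to 1.23) and 1.15-fold lower in LNCKO (1.09 to 1.21). Ddit4 (ENSMUSG00000020108, chr10:59949669-59951834, minus strand), which encodes REDD1, was at 13.1 FPKM in both control libraries, 12.2 in WT butyrate and 14.3 in LNCKO butyrate. The control libraries thus did not differ beyond counting error, while with butyrate the ratio was 0.931 in WT (0.867 to 0.998) and 1.10 in LNCKO (interval 1.03 to 1.17).

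Ddit4 is also known to be induced by hypoxia, and other genes of that kind differed between the genotypes more than Ddit4 did. In a list of hypoxia and mTORC1 brake genes, 7 of 12 passed the limit. Of these, 3 were past 1.5-fold higher in LNCKO than in WT both without and with butyrate, against 0.617% and 1.56% of all genes. Egln3, an oxygen-sensing hydroxylase, was at 1.26 and 1.20 FPKM in WT control and WT butyrate and at 2.38 and 2.36 in LNCKO control and LNCKO butyrate. Bnip3, a mitophagy receptor, was at 3.06 and 2.97 against 5.29 and 5.34 FPKM, and Ankrd37 at 1.03 and 0.988 against 1.85 and 1.96. The median log2 difference of LNCKO from WT over the list was 0.44 without butyrate and 0.52 with it, against 0.02 and 0.06 for all genes. For butyrate against control, the list median was -0.07 in WT and 0.01 in LNCKO, against -0.05 and -0.02 for all genes.

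Gdf15 (ENSMUSG00000038508, chr8:70629393-70632456, minus strand) encodes a cytokine of the TGF-β superfamily that is released by stressed cells and acts on appetite. Its level was 2.23 FPKM without and 1.32 with butyrate in WT, and 2.53 without and 3.95 with it in LNCKO, from 385, 239, 413 and 792 fragments. The control libraries were close to each other, and the butyrate libraries lay on opposite sides of them. Gdf15 was 1.69-fold lower with butyrate in WT (1.44 to 2.00) and 1.56-fold higher in LNCKO (interval from 1.38 to 1.76 fold). LNCKO was 1.13 times WT without butyrate (0.984 to 1.31) and 2.99 times with it (2.59 to 3.47).

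Among the 6809 genes above the limit, Gdf15 ranked 39 from the lowest for butyrate in WT, 32 from the highest for butyrate in LNCKO and 15 from the highest for LNCKO against WT under butyrate. For the butyrate change in WT minus that in LNCKO, which was -1.34 on the log2 scale, it ranked 13 from the lowest. The 5 genes nearest in profile were H4c17 (distance 0.237), Gh (0.315), Hmox1 (0.386), Otub2 (0.418) and Ankle1 (0.445). Hmox1, the stress-inducible heme oxygenase, was at 33.9 FPKM without and 21.5 with butyrate in WT, and 42.8 without and 46.2 with it in LNCKO.

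Markers of other cell types differed between the same libraries as Gdf15. The 6 erythroid markers used summed to 6.10 FPKM without and 6.79 with butyrate in WT, and 22.7 without and 64.7 with it in LNCKO. The 3 globin genes made up nearly all of this, while Klf1 was listed at 0 in LNCKO butyrate and Alas2 did not exceed 0.0374 FPKM. All 5 of the 7 B cell markers above the limit were lower with butyrate in WT, and the 7 summed to 209 FPKM without and 164 with butyrate in WT and to 213 and 216 in LNCKO. Lyz2, an abundant myeloid lysozyme, went the other way from Gdf15, with log2 differences with butyrate of 0.54 in WT and -0.89 in LNCKO. The 6 mast cell and basophil markers summed to 46.2, 34.8, 71.8 and 70.9 FPKM, most of it Prss34. With butyrate, Mcpt8 was lower in WT (-0.96 on the log2 scale) and Ms4a2 higher in both genotypes (0.66 in WT and 1.15 in LNCKO). Stromal Col1a1 and Col1a2 stood at -0.34 and -0.36 in WT and at 0.89 and 1.04 in LNCKO. Dcn, Col3a1 and Cxcl12, under the limit, were above 0 in both. Of 10 neutrophil and granulocyte precursor markers, 7 were above 0 with butyrate in WT, Ly6g most (1.20), and 3 below. The shares of all genes above and below 0 were not counted, and the part of these cells in the Gdf15 and Trib3 values was not tested.

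Gdf15 and Sesn2 are known as targets of p53 too, and a list of other p53 targets was set beside them. Of 12 listed, 8 passed the limit. With butyrate in WT, 7 of the 8 were below 0 on the log2 scale, and 0 were past 1.5-fold. Their median was -0.36, against -0.05 for all genes. Btg2, an antiproliferative gene, was at 68.6 FPKM without and 48.1 with butyrate in WT, and 81.3 without and 72.0 with it in LNCKO, and Cdkn1a, encoding the cell cycle inhibitor p21, at 19.6, 14.7, 22.7 and 21.7. With butyrate in LNCKO, 8 of the 8 were below 0, and the median was -0.06, against -0.02 for all genes. The share of all genes below 0 was not counted in either genotype. Under butyrate the median of LNCKO against WT was 0.30, against 0.06 for all genes, with Plk2 past 1.5-fold (0.66 on the log2 scale).

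Asns and Psat1 encode enzymes that make asparagine and the serine precursor phosphoserine. Asns (ENSMUSG00000029752, chr6:7675169-7693254, minus strand) was at 0.629 FPKM without and 0.700 with butyrate in WT, and 0.781 without and 0.522 with it in LNCKO. LNCKO butyrate was the lowest library and LNCKO control the highest. Asns was 1.496-fold lower with butyrate in LNCKO (1.34 to 1.67), and the ratio in WT was 1.11 (0.999 to 1.24). With a mean of 0.658 FPKM, Asns too lies under the limit.

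Psat1 (ENSMUSG00000024640, chr19:15904678-15947337, minus strand) was at 1.24 FPKM without and 1.52 with butyrate in WT, and 1.43 without and 1.31 with it in LNCKO. WT butyrate was highest and WT control lowest. The ratio with butyrate was 1.23 in WT (1.17 to 1.29), and Psat1 was 1.09-fold lower in LNCKO (1.04 to 1.14). The minus-strand gene spans a processed pseudogene, Gm3329, which does not overlap its exons.

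Among 10 other enzymes of serine, proline and folate metabolism, 3 passed the limit and 0 were past 1.5-fold. Phgdh, the first enzyme of serine synthesis, was at 1.12 FPKM without and 1.39 with butyrate in WT, and 1.26 without and 1.18 with it in LNCKO. Shmt2, the mitochondrial serine hydroxymethyltransferase, was at 11.6, 14.7, 12.5 and 12.4 FPKM, while Mthfd2, the next mitochondrial folate enzyme and an ATF4 target, was at 2.99, 2.58, 2.78 and 2.79. Thus Psat1, Phgdh and Shmt2 were each highest in WT butyrate, and Mthfd2 was lowest there.

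Amino acid transporters and tRNA synthetases, both classical ATF4 target groups, showed no difference past 1.5-fold. Among 11 transporters, 5 passed the limit. Slc7a5, the light chain of the large neutral amino acid carrier, was at 1.63 FPKM without and 2.02 with butyrate in WT, and 1.69 without and 1.55 with it in LNCKO, whereas its partner Slc3a2 was at 11.1, 10.4, 13.2 and 13.1. Slc1a5, a glutamine carrier, was at 8.93, 7.03, 9.92 and 9.33 FPKM. All 12 synthetases passed, and in LNCKO 11 of 12 were below 0 with butyrate, with a median log2 value of -0.09 against -0.02 for all genes. Without butyrate 11 of 12 were above 0 in LNCKO against WT, with a median of 0.12 against 0.02 for all genes. The shares of all genes below and above 0 in these comparisons were not counted. Yars, encoding the tyrosine enzyme, was at 1.35, 1.37, 1.61 and 1.45 FPKM.

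Of 14 other known ATF4 and CHOP targets in the table, 8 passed the limit and 0 were past 1.5-fold in any of the comparisons. Nupr1, a stress-induced chromatin protein, was at 3.69 FPKM without and 2.71 with butyrate in WT, and 3.51 without and 3.79 with it in LNCKO. Bbc3, encoding the cell death protein PUMA, was at 1.38, 0.993, 1.18 and 1.12 FPKM. Ero1a, an oxidase of the endoplasmic reticulum that is also induced by hypoxia, was at 5.39 and 5.53 FPKM in WT control and WT butyrate and at 7.46 and 7.20 in LNCKO control and LNCKO butyrate.

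Set side by side, the butyrate differences in WT and in LNCKO took several combinations of sign. Gdf15 (-0.72 and 0.62 on the log2 scale), Ddit3 (-0.18 and 0.06), Ddit4 (-0.10 and 0.13) and Chac1 (-0.03 and 0.19) were below 0 in WT and above 0 in LNCKO. Psat1 (0.28 and -0.12) and Asns (0.13 and -0.50), the amino acid enzymes, and Atf4 (0.07 and -0.01) were above 0 in WT and below it in LNCKO. Trib3 (-0.75 and -0.52), Ppp1r15a (-0.25 and -0.11) and Sesn2 (-0.21 and -0.19) were below 0 in both. The values of Chac1 in WT and of Atf4 in LNCKO turned to 0.01 with median ratio scaling, so their signs are not firm. The intervals of both ratios lay clear of 1, on opposite sides, for Gdf15, Ddit4 and Psat1 on the deposited scale and for Gdf15, Psat1 and Asns with median ratio scaling. The share of all genes for which this holds was not counted.

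**Figure D4:**
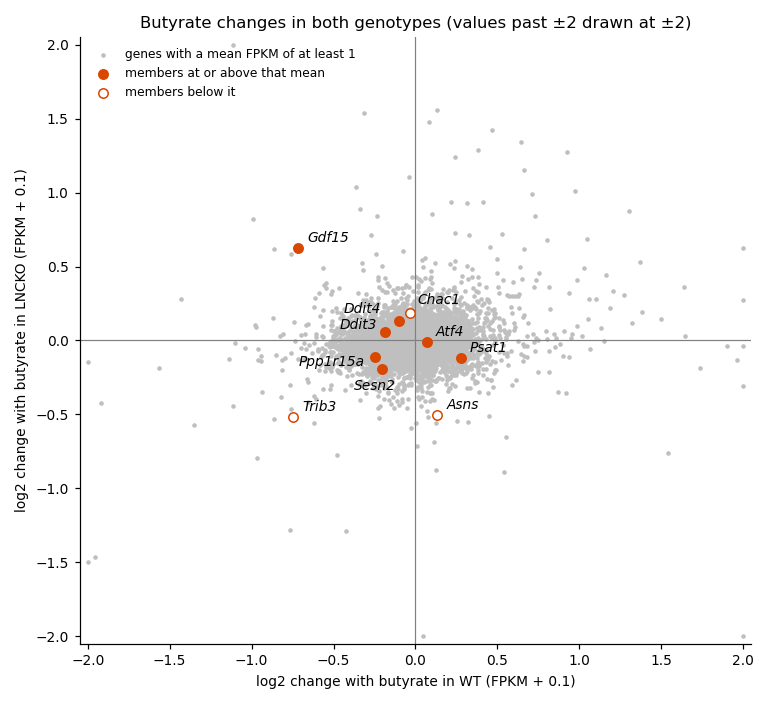
Butyrate difference, log2(FPKM + 0.1), in WT (horizontal axis) against that in LNCKO (vertical axis), with the 10 genes named over all genes whose FPKM averaged 1 or more. Gdf15 lies at -0.72 and 0.62, Trib3 at -0.75 and -0.52 and Asns at 0.13 and -0.50, and the other members lie between -0.25 and 0.28 in WT and between -0.19 and 0.19 in LNCKO.

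The ATF6 and XBP1 branch of the unfolded protein response, which raises chaperones of the endoplasmic reticulum, had 18 of 18 genes above the limit and 0 past 1.5-fold in any of the comparisons. The gene with the largest difference in the list was the chaperone Hyou1, at 16.2 FPKM without and 19.1 with butyrate in WT, and 17.9 without and 16.3 with it in LNCKO. For mitochondrial stress genes, 7 of 8 passed and 0 were past 1.5-fold. Hspd1, the mitochondrial chaperonin, was at 14.5, 18.3, 15.5 and 15.2 FPKM, and Dele1, which relays mitochondrial stress to HRI, at 1.78, 1.44, 1.86 and 1.57. Hyou1, Hspd1, Psat1, Phgdh and Shmt2 were each highest in WT butyrate.

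**Figure D5:**
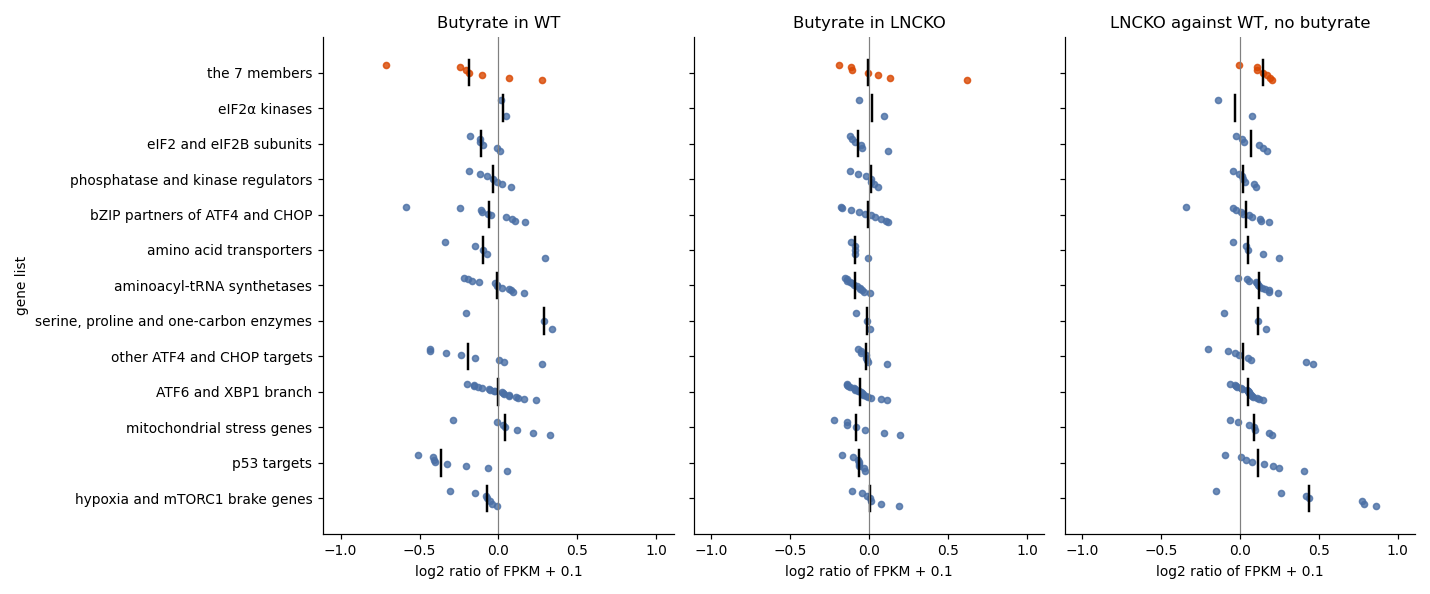
Log2(FPKM + 0.1) difference of each gene (points) and the median of each list (black lines) for butyrate in WT, butyrate in LNCKO and LNCKO against WT without butyrate, over genes whose FPKM averaged 1 or more. The median of the hypoxia and mTORC1 brake genes stands at 0.44 for LNCKO against WT (0.02 for all genes). That of the p53 targets stands at -0.36 for butyrate in WT (-0.05 for all genes), while that of the ATF6 and XBP1 branch stays within 0.06 of 0.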

How the data were processed

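Total RNA of 4 macrophage libraries, 1 per group, was sequenced. The authors deposited FPKM values per gene and no counts. The submitters' processing notes name STAR 2.5.0c, Picard 1.126, bedtools 2.17.0, HTSeq 0.6.0 and DESeq2 3.0 with GRCm38, but not their roles. For each library, the total that turned FPKM times gene span into whole fragments was searched. Within a tolerance of 0.02 fragments, 16093 of 16342 genes matched to GENCODE M21 were whole in all 4 libraries. Ratios of libraries have exact binomial intervals and single values exact Poisson intervals, at 95%. Log2 differences used FPKM + 0.1, and counts took genes averaging 1 FPKM or more and differences past 1.5-fold. Scripts (matplotlib 3.10.9, pandas 2.3.3, scipy 1.17.1 and numpy 2.4.6 under Python 3.11.15) were tested on simulated data. The 10 genes and 19 further lists were chosen with earlier results of these data known. Named genes were all members, up to 4 per list with the largest differences, members of the kinase, eIF2 and bZIP lists, the 5 nearest profiles of Atf4 and Gdf15, markers moving with a result and Ddx3y. Mars1, Tulp2, Ppp1r15b, Cebpg and Eif2s3y were added after their values were seen, for overlap or role. Other pseudocounts, filters, scaling and fold limits were tried as alternatives. One erythroid marker is not reported here.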

Additional observations from a re-analysis of the deposited data

Results flagged for a closer look

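For 3 of the 10 genes the butyrate difference had opposite directions in the 2 genotypes, with the counting intervals of both ratios excluding 1. The butyrate change in WT minus that in LNCKO, on the log2(FPKM + 0.1) scale, was -1.34 for Gdf15, -0.24 for Ddit4 and 0.39 for Psat1. With 1 library per group, the difference was not tested. How many of all genes meet the same rule was not counted, so 3 of 10 cannot be read as many or few. With libraries scaled by their median ratio, Ddit4 left this set, its ratio with butyrate in WT being 0.969 (0.903 to 1.04), and Asns entered it, with ratios of 1.16 (1.04 to 1.29) in WT and 0.678 (0.608 to 0.755) in LNCKO.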

How the results depend on the processing

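No paired analysis was possible because each group had 1 library, so that the groups share fewer than 2 replicate numbers, and no library could be left out, since that empties its group. The filter of at least 50 fragments was chosen after seeing the data. Of 150 values of single members under alternatives, 135 stayed within the counting interval, 15 moved (13 with a pseudocount of 1, 2 with median ratio scaling, both of Atf4) and none past 1.5-fold changed sign. The 3 values that did change sign, all with median ratio scaling, were near 0, namely Chac1 for butyrate in WT (-0.03 to 0.01), Atf4 for butyrate in LNCKO (-0.01 to 0.01) and Sesn2 for the WT change minus the LNCKO change (-0.01 to 0.02). Atf4 went from 0.07 to 0.13 for butyrate in WT and from 0.07 to 0.01 for LNCKO against WT under butyrate. The member medians moved by less than 0.1 in every alternative. The counts of members past 1.5-fold were sensitive, being 1 or 0. For butyrate in WT, the count lower was 1 and became 0 with a pseudocount of 1, 0 where genes had to average 5 FPKM and 0 at 2-fold, but 2 with no filter and 2 with at least 50 fragments, Trib3 being added. For butyrate in LNCKO, the count higher went from 1 to 0 with a pseudocount of 1, a mean of at least 5 or a 2-fold limit. For LNCKO against WT, the count higher without butyrate went from 0 to 1 with no filter or at least 50 fragments, and with butyrate from 1 to 2 under both and to 0 with a mean of at least 5. For the WT change minus the LNCKO change, the count above 0 went from 0 to 1 (Asns) with no filter or at least 50 fragments, and the count below it from 1 to 0 with a mean of at least 5. Only 4 members passed a mean of at least 5, and Gdf15 did not. Depth limits Chac1 most, with 56 to 84 fragments.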
